A study of Homo sapiens with 18 samples.

Results

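The comparison described here is that of MM1R cells pre-treated with ferrostatin-1 (Fer-1) before RSL3 against MM1R cells given RSL3 alone, which asks which part of the early transcriptional response to RSL3 was held back by a lipid peroxidation inhibitor. It rests on 6 of the 18 RNA sequencing libraries, chosen by their treatment labels and paired by cell passage. MM1R is a human multiple myeloma line that is resistant to glucocorticoids, and MM1S is its glucocorticoid-sensitive counterpart of the same origin. The 3 RSL3 libraries came from passages 4, 6 and 7 after 3 h with 5 µM RSL3, and the 3 libraries with Fer-1 came from the same passages after 2 h with 2 µM Fer-1 followed by 3 h with 5 µM RSL3. The 3 untreated MM1R libraries of these passages and the 9 MM1S libraries are given beside them. All groups were grown in the same medium with serum, MM1R is a single cell line, and no group received Fer-1 alone, so an effect of Fer-1 in the absence of RSL3 cannot be told apart from its effect on the RSL3 response.

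RSL3 inhibits GPX4, the selenoenzyme that reduces lipid hydroperoxides in membranes. When this repair fails, iron-dependent oxidation spreads through membrane lipids and the cell dies by ferroptosis, and Fer-1 traps the lipid radicals that carry this oxidation forward. RSL3 is also an electrophile, and cells answer reactive compounds through several arms: metal-responsive transcription of metallothioneins, the antioxidant programme of NRF2, the amino acid and stress programme of ATF4, and immediate early genes downstream of kinase signalling.

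Total counts lay between 18289078 and 18962868 in the RSL3 libraries and between 18352869 and 19025112 in the libraries with Fer-1 and RSL3, so depth was nearly equal. All 7 plasma cell markers examined were at 1 CPM (read counts scaled to a common library size) or more in every MM1R library, with summed levels of 4367 to 4976 CPM after RSL3 and 4586 to 4712 CPM after Fer-1 and RSL3. The 3 B cell markers summed to at most 0.506 CPM and the 3 monocyte markers to at most 0.601 CPM in any MM1R library. Of the 3 T cell markers, CD3E alone was above 1 CPM, and the sum of the list was 7.13 to 8.09 CPM after Fer-1 and RSL3 and 8.82 to 10.3 CPM after RSL3.

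One library stood apart from its label. From the untreated libraries, 10 genes were found that mark MM1S and 15 that mark MM1R, each at least 8 times higher in every untreated library of one line than in every one of the other. In the passage 6 library with Fer-1 and RSL3, the MM1S genes reached a median of 47.9% of their MM1S level (quartiles 43.0% and 51.0%). The other MM1R libraries given RSL3, with or without Fer-1, lay between 0.204% and 2.54%. The untreated libraries chose the genes and set the scale, so their own values lie near its ends by construction. The MM1R genes stood at 42.4% of their MM1R level in the passage 6 library with Fer-1 and RSL3. They stood at 81.8% to 103% in the other treated MM1R libraries. NR3C1, which encodes the glucocorticoid receptor, was at 50.2 CPM in that passage 6 library. It was at 16.9 and 15.3 CPM at passages 4 and 7 with the same treatment and at 89.9 to 392 CPM in the 9 MM1S libraries. Results are therefore given with all 3 passages and again without the 3 MM1R libraries of passage 6.

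**Figure D1:**
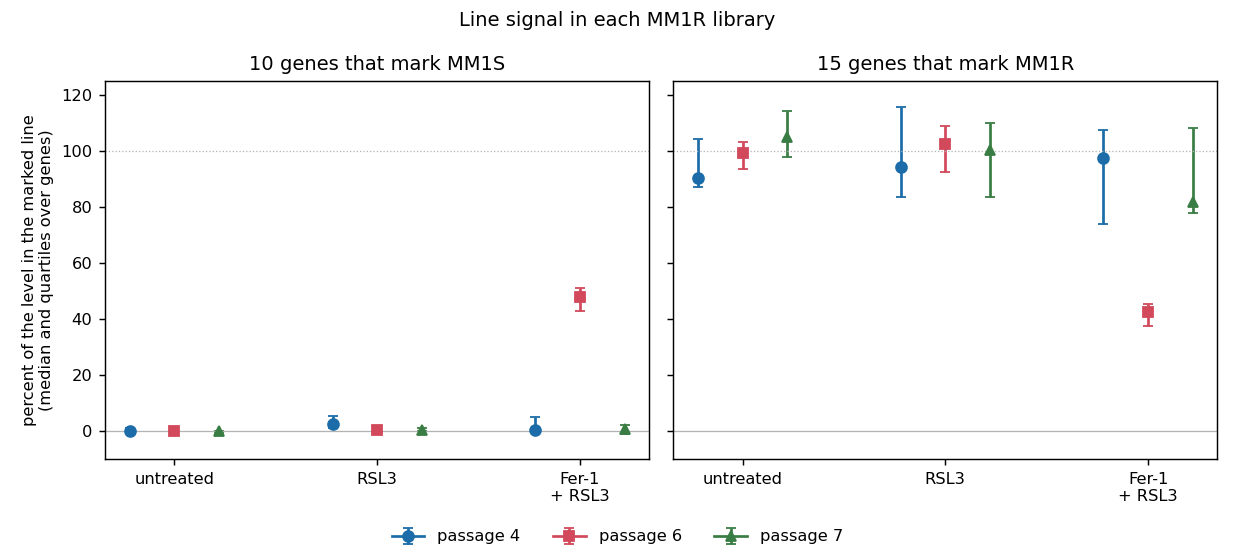
Line signal in the 9 MM1R libraries, as the percent of the level in the marked line; points are medians over the genes and bars their quartiles, with the 10 MM1S genes on the left and the 15 MM1R genes on the right. The passage 6 library with Fer-1 and RSL3 sits at 47.9% on the left and 42.4% on the right, away from the other 8 libraries. The untreated libraries, which chose the genes, lie near the ends of the scale by construction.

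With all 3 passages, 12 of 14281 tested genes were DEGs (FDR below 0.05, with a log2 fold change of over 1 in either direction; edgeR's quasi-likelihood test with the passage as a block). The 9 lower genes (0.0630% of those tested) were the metallothioneins MT1E, MT1F, MT1G and MT1H, and CXCL10, BCL3, HES1, SPSB1 and THEMIS2. MT1E, MT1F and MT1H passed the low count filter only through RSL3 libraries, where they were high, so their calls are not independent of that filter. The 3 higher genes (0.0210%) were SPIN3, ZNF175 and MGST1. Without passage 6, the 4 metallothioneins remained and were the only DEGs among 14592 tested genes (0.0274%), and no gene was called higher, against 565 genes higher (3.87%) and 562 lower (3.85%) at an unadjusted p under 0.05. In the fit without the passage block, edgeR called 0 DEGs (881 genes at an unadjusted p under 0.05, smallest FDR 0.123), and DESeq2 without the block called 17, of which 5 were among the 12. The count also moved with single libraries. It was 91 without the passage 16 library of MM1S with RSL3, which is outside the comparison but shares its filter, scaling and estimate of spread. Leaving out the passage 6 library with Fer-1 and RSL3 gave 4, the passage 4 RSL3 library 5 and the passage 7 RSL3 library 7. It was 6 without the passage 7 library with Fer-1 and RSL3, and 6 without either the passage 22 untreated or the passage 23 Fer-1 and RSL3 library of MM1S.

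The metallothioneins carried the largest fall. These small cysteine-rich proteins bind zinc and other metals, and the 4 called genes lie in the metallothionein cluster on chromosome 16 (hg19, chr16:56659387-56705041, all annotated as protein-coding). Their known inducer is the zinc-sensing factor MTF1, which binds metal response elements with the core TGCACNC or TGCGCNC. The 250 bases before the start sites of MT1H, one of the 4, and of MT1X and MT2A, which belong to the same cluster, are shown to let these elements be seen (RefSeq promoters of GRCh38.p14, placed on hg19 by an exact match). Capitals mark either core on either strand.
MT1H (chr16:56703476-56703725, forward strand): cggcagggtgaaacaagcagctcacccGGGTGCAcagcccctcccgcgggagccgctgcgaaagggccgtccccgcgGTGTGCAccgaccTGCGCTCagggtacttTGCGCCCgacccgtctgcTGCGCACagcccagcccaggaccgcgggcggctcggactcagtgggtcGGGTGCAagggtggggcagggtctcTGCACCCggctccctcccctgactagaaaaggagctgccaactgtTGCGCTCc
MT2A (chr16:56642246-56642495, forward strand): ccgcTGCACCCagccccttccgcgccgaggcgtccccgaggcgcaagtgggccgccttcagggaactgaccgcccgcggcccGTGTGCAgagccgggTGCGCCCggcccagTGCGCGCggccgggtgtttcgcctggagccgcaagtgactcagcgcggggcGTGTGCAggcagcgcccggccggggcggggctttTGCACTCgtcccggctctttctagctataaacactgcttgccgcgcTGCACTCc
MT1X (chr16:56716132-56716381, forward strand): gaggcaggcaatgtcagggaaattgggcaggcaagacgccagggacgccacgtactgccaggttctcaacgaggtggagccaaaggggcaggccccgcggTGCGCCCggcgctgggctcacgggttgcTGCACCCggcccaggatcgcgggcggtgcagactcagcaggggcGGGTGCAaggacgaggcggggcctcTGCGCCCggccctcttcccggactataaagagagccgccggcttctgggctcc
MT1H held 8 matches, MT2A 7 and MT1X 4, none of them overlapping. The other 2 promoters of the list with an entry, not printed, held 3 matches (MT1B) and 1 match (SLC30A1). Of all 35116 promoters of the same length in the table, 24.8% held at least 1 match and 1.58% held 3 or more. A match describes letters only and does not show binding.

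MT1G (chr16:56700642-56701977) stood at 625, 6.28 and 195 CPM in the RSL3 libraries of passages 4, 6 and 7, and at 1.21, 0.936 and 2.95 CPM with Fer-1 and RSL3. The untreated libraries held 0, 0.0545 and 0.116 CPM. The level was thus lower with Fer-1 in each passage and the groups did not overlap, as for 6.44% of all tested genes in this direction. The RSL3 library of passage 6 was far below the other 2 RSL3 libraries. The log2 fold change was -6.81 ± 0.86 (SE from the fit of all libraries, with 3 MM1R pairs, FDR 0.0102), and -7.42 ± 0.82 without passage 6 (FDR 0.00918). Because 1 RNA sample pools many cells, a lower level in every cell and a smaller share of cells with the transcript cannot be told apart.

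MT1H (chr16:56703726-56705041) had 848, 4 and 220 reads in the RSL3 libraries and 0, 1 and 3 reads with Fer-1, where every library was at or under a floor of 3 counts. Set against that floor in each library, its mean level of 19.4 CPM with RSL3 was at least 124-fold higher than with Fer-1 (FDR 0.00887), or at least 184-fold without passage 6 (FDR 0.00918). MT1F (chr16:56691643-56694610) had 562, 4 and 147 reads with RSL3 and 1, 2 and 2 with Fer-1, a level at least 82.3-fold higher with RSL3 (FDR 0.0181) and at least 122-fold higher without passage 6 (FDR 0.0476).
Both genes shared the order of MT1G over the RSL3 libraries, highest at passage 4 and near the floor at passage 6. Neither had overlapping groups, but this rests on few reads of the passage 6 RSL3 library. For MT1H these were 4 reads against up to 3 with Fer-1, and for MT1F 4 reads against up to 2.

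MT1E (chr16:56659387-56661024) had 154, 0 and 37 reads with RSL3 and 1, 0 and 0 with Fer-1, so the groups overlapped at passage 6, where no read was found in either library. Its level was at least 22-fold higher with RSL3 (FDR 0.00833), and at least 32.9-fold without passage 6 (FDR 0.00728). Leaving out single libraries ended some of these calls. Without the passage 4 RSL3 library, none of the 4 was called (largest FDR for MT1G and MT1H 0.0872, for MT1E 0.153 and for MT1F 0.284 over all libraries left out). MT1E was also lost without the passage 4 library with Fer-1, MT1F without that library or either passage 7 library of the comparison, and MT1G without the passage 7 library with Fer-1. DESeq2 called MT1F and MT1G with and without the block (FDRs 0.00162 to 0.00241) but not MT1H (FDR 0.159 with the block and 0.0946 without it) or MT1E (FDR 0.571 with the block and none given without it). In fits of MM1R libraries alone, or of the groups compared alone, with all 3 passages, the low count filter removed MT1E, MT1F and MT1H, and MT1G was called (FDRs 0.0144 and 0.0467).

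MT2A and MT1X, 2 further members of the family, followed the same profile without passing the test. MT2A was at 732, 6.72 and 252 CPM with RSL3, at 6.72, 3.22 and 6.45 CPM with Fer-1 and at 0.520, 1.91 and 1.68 CPM without treatment (log2 fold change -5.10 ± 1.22, FDR 0.122; -6.09 ± 1.08, FDR 0.182 without passage 6). MT1X was at 948, 13.4 and 354 CPM with RSL3 and at 16.3, 6.35 and 12.6 CPM with Fer-1 (log2 fold change -4.42 ± 1.17, FDR 0.156). SLC30A1, the zinc exporter of the plasma membrane and a further MTF1 target, was at 1043, 321 and 802 CPM with RSL3, at 303, 291 and 293 CPM with Fer-1 and at 325, 289 and 220 CPM without treatment (log2 fold change -1.19 ± 0.41, FDR 0.255). The 3 libraries with Fer-1 lay within the untreated range of SLC30A1, and so did the RSL3 library of passage 6. Of the 11 genes in the list of metallothioneins and zinc export, 7 were tested and all 7 had a negative log2 fold change, with a median of -6.81, or -5.10 with the 3 genes at the floor set to their bound. MT1E, MT1F and MT1H passed the low count filter only through RSL3 libraries, so their place in this list carries no separate weight. Metallothionein transcripts are near-identical and the counting tool is not given in the sources used here, so the split of reads among the members is uncertain.

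**Figure D2:**
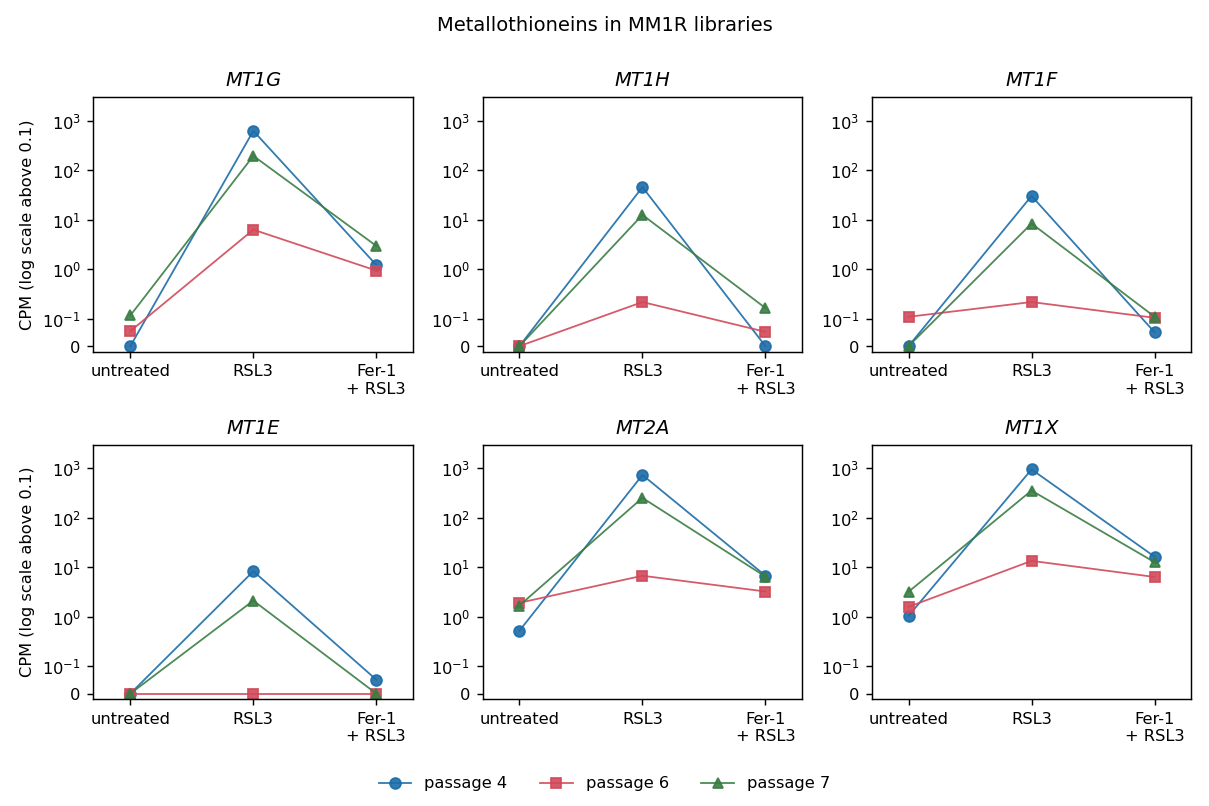
Levels of 6 metallothionein genes in CPM (log scale above 0.1) in the 9 MM1R libraries, with a line for each passage. RSL3 libraries of passages 4 and 7 stand far above untreated cells, the passage 6 RSL3 library is much lower (6.28 CPM of MT1G against 625 and 195), and the libraries with Fer-1 lie below the RSL3 library of the same passage, except for MT1E at passage 6, where both are at 0; MT1G with Fer-1 (0.936 to 2.95 CPM) stays above its untreated libraries.

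Of the other called genes, 5 fell with a smaller fold. HES1, a transcriptional repressor downstream of Notch, was at 19.4, 19.9 and 17.5 CPM with RSL3 and at 9.05, 5.25 and 5.68 CPM with Fer-1, against 6.75, 6.97 and 12.6 CPM in untreated cells. The RSL3 libraries lay close together, above all 6 others. The log2 fold change was -1.52 ± 0.25 (FDR 0.0374). BCL3, an atypical IκB protein that acts with NF-κB subunits in the nucleus, was at 49.3, 31.1 and 45.3 CPM with RSL3 and at 22.1, 16 and 11.7 CPM with Fer-1, and untreated cells held 24.7, 25 and 20.2 CPM. Its groups did not overlap, as for 6.44% of all tested genes in this direction, and the log2 fold change was -1.36 ± 0.22 (FDR 0.0326).

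CXCL10, a chemokine induced by interferons, was at 20.3, 16.3 and 23.2 CPM with RSL3 and at 8.34, 4.73 and 5.85 CPM with Fer-1 (log2 fold change -1.66 ± 0.24, FDR 0.0175). Untreated libraries held 13.6, 15.4 and 14.5 CPM, so all 3 libraries with Fer-1 lay below untreated cells, by a log2 fold change of -1.23 ± 0.24 (FDR 0.0034; FDR 0.0506 without passage 6). RSL3 alone differed from untreated by 0.44 ± 0.23 (FDR 0.219).

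SPSB1, a substrate adaptor of an E3 ubiquitin ligase, was at 19.4, 21.1 and 20.2 CPM with RSL3 and at 12.5, 7.02 and 10.8 CPM with Fer-1, with untreated levels between 13.8 and 14.2 CPM (log2 fold change -1.02 ± 0.17, FDR 0.0394). THEMIS2, a signalling adaptor of B-lineage cells, was at 30.4, 11.0 and 45.1 CPM with RSL3, at 9.91, 5.10 and 6.12 CPM with Fer-1 and at 4.19 to 4.23 CPM without treatment (log2 fold change -1.92 ± 0.34, FDR 0.0469). Groups did not overlap for either gene, and THEMIS2 showed the same low RSL3 value at passage 6 as the metallothioneins. Over the whole table, groups did not overlap for 919 genes in this direction (6.44%), so the absence of overlap alone is common. The passage 6 library with Fer-1, which holds MM1S signal, was the lowest of its group for SPSB1, THEMIS2, CXCL10 and HES1. Untreated MM1S libraries held 8.08, 0.888 and 0.903 CPM of SPSB1, 2.02, 0.627 and 0.502 of THEMIS2 and 13.3, 2.98 and 4.92 of CXCL10. For BCL3 (15.3 to 24.1 CPM) and HES1 (7.68 to 12.2 CPM), the same libraries were nearer to untreated MM1R cells. Whether MM1S signal lowered these values was not tested.

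Without passage 6, none of these 5 genes was called in the fit of all remaining libraries. The log2 fold changes were then -2.23 for THEMIS2 (FDR 0.0876), -1.53 for BCL3 (FDR 0.143), -1.62 for CXCL10 (FDR 0.181), -1.32 for HES1 (FDR 0.321) and -0.76 for SPSB1 (FDR 0.321). Without passage 6, DESeq2 with the block and the fit of only the groups compared each called BCL3, CXCL10, HES1 and THEMIS2. The fit of only the groups compared then rests on 4 libraries, with fewer than the 2 residual degrees of freedom it has with all 3 passages. It called 156 DEGs, so its calls carry little weight. With 1 library left out at a time, CXCL10 was called in 14 of 18 fits, BCL3 in 10, HES1 in 8, SPSB1 in 6 and THEMIS2 in 3; the libraries of passage 6 and 7 with Fer-1 and the RSL3 libraries of passages 4 and 7 each ended the calls of CXCL10 and BCL3 when left out.

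A further 8 genes fell by a log2 fold change of less than 1 in size, which brings those lower at an FDR under 0.05 to 17 (0.119%). BTG2, an antiproliferative immediate early and p53 target gene, was at 993, 855 and 1070 CPM with RSL3 and at 625, 586 and 627 CPM with Fer-1, and untreated cells held 938, 793 and 790 CPM. The libraries with Fer-1 were the lowest of the 9, and the log2 fold change was -0.66 ± 0.09 against RSL3 (FDR 0.0102) and -0.45 ± 0.09 against untreated cells (FDR 0.00298). ZNF710, a zinc finger gene, was likewise at 32.2, 25.6 and 25.9 CPM with Fer-1, against 50.8, 39.3 and 57.2 CPM with RSL3 and 46.5, 40.0 and 40.0 CPM without treatment (log2 fold change -0.81 ± 0.11, FDR 0.0102). BMF, a BH3-only cell death gene, was at 300, 216 and 289 CPM with RSL3 and at 169, 164 and 160 CPM with Fer-1 (log2 fold change -0.70 ± 0.12, FDR 0.0442). The remaining 5 were ZFP36L2 (-0.97), an RNA-binding protein that promotes mRNA decay, IGF1 (-0.66), KLF13 (-0.51), RBM38 (-0.49) and WBP11 (-0.44), with values in log2 fold change and named after their values were seen. Without passage 6, none of the 8 passed the FDR threshold, and ZNF710 came nearest (FDR 0.0555).

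**Figure D3:**
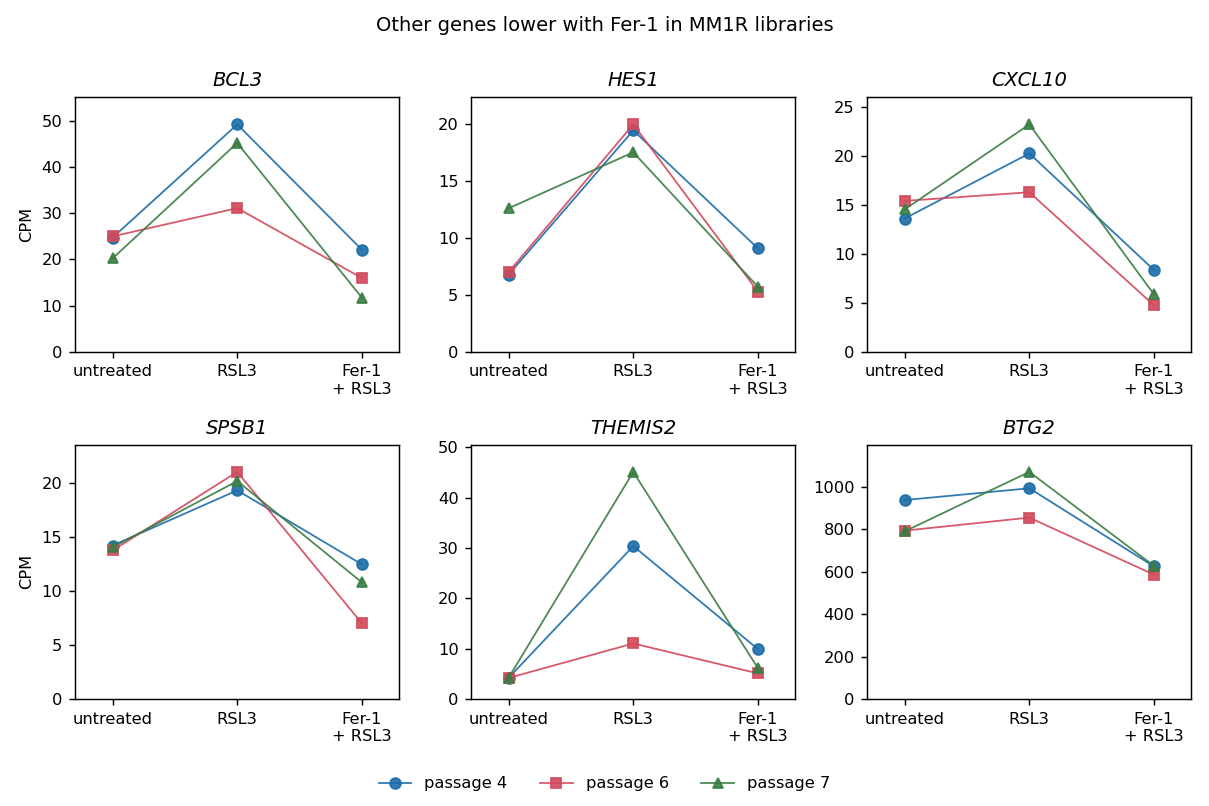
Levels in CPM of BCL3, HES1, CXCL10, SPSB1, THEMIS2 and BTG2 in the 9 MM1R libraries, with a line for each passage and axes from 0. In all 6 genes the libraries with Fer-1 lie below the RSL3 library of the same passage, and for CXCL10, BTG2, SPSB1 and BCL3 they also lie below the untreated library of that passage.

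The 3 genes called higher behaved differently. SPIN3, a spindlin family member, was at 0.253, 3.64 and 0.109 CPM with Fer-1 at passages 4, 6 and 7 and at 0.0538, 0 and 0 CPM with RSL3. MGST1, a membrane-bound glutathione transferase that is known to limit lipid peroxidation, was at 10.6 CPM in the passage 6 library with Fer-1, at 0 CPM in the other 2 libraries with Fer-1 and at no more than 0.0538 CPM in the RSL3 libraries. ZNF175, a zinc finger gene, was at 2.76 CPM in the same passage 6 library and at 0 in the other 8 MM1R libraries. In each case the high value belonged to the 1 library that holds MM1S signal, and the 9 MM1S libraries expressed all 3 genes, at 6.44 to 8.68 CPM (SPIN3), 13.0 to 24.2 CPM (MGST1) and 3.42 to 6.34 CPM (ZNF175). SPIN3 and MGST1 are also among the 10 MM1S-marking genes. Without passage 6, SPIN3 had a log2 fold change of 2.47 ± 0.94 (FDR 0.574) on 5 and 2 reads, and MGST1 and ZNF175 had at most 1 read in any MM1R library.

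MBP, the myelin basic protein gene and another of the MM1S-marking genes, had the same profile just outside the threshold, with 14.6 CPM in the passage 6 library with Fer-1 and at most 0.171 CPM in the other MM1R libraries of the comparison (log2 fold change 5.39, FDR 0.058; -0.76, FDR 0.874 without passage 6). Of the genes higher at an FDR under 0.05 (8, 0.0560%), 5 had smaller changes that were seen at every passage. RNR2 was at 11281, 9832 and 9709 CPM with Fer-1 and at 8038, 5337 and 6160 CPM with RSL3 (log2 fold change 0.68 ± 0.10, FDR 0.0181). TMEM79, a transmembrane protein gene, was at 23.5, 21.8 and 26.9 CPM with Fer-1 and at 16.2, 13.9 and 14.9 CPM with RSL3 (0.68 ± 0.12, FDR 0.0442). The others were ANLN, which encodes the cytokinesis protein anillin (0.78), ZNF473 (0.58) and CCDC82 (0.52). Without passage 6, their direction was kept and FDRs were 0.321 to 0.361.

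HMOX1, which encodes the haem-degrading enzyme haem oxygenase-1 and is an NRF2 target, was at 237, 243 and 1404 CPM with RSL3, at 748, 685 and 1463 CPM with Fer-1 and at 13.5, 17.8 and 25.4 CPM in untreated cells. It was higher with Fer-1 than with RSL3 at each passage, but the groups overlapped and the difference did not pass the test (log2 fold change 1.00 ± 0.49, FDR 0.388). Against untreated cells, the log2 fold change was 4.62 ± 0.57 with RSL3 (FDR 0.000755) and 5.62 ± 0.59 with Fer-1 and RSL3 (FDR 0.000106). These comparisons share libraries with the main one, and their values stand side by side only.

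SLC7A11, the cystine transporter that feeds glutathione synthesis, was at 54.7, 37.3 and 61.6 CPM with RSL3 and at 73.1, 73.7 and 91.7 CPM with Fer-1, against 6.20 to 11.4 CPM in untreated cells (log2 fold change between the treated groups 0.64 ± 0.34, FDR 0.416). CHAC1, a glutathione-degrading enzyme induced by ATF4, was at 76.7, 65.6 and 112 CPM with RSL3 and at 197, 135 and 262 CPM with Fer-1, against 8.86 to 12.9 CPM without treatment (1.22 ± 0.44, FDR 0.265). PSAT1, an ATF4 target of serine synthesis, was at 210, 197 and 196 CPM with RSL3 and at 310, 338 and 331 CPM with Fer-1 (0.70 ± 0.19, FDR 0.173). For all 3 genes the libraries with Fer-1 lay above every RSL3 library, a pattern that 994 tested genes share (6.96%), and none passed the test of the difference. Against untreated cells with Fer-1 and RSL3, their log2 fold changes were 3.14 ± 0.38 (FDR 0.00026), 4.21 ± 0.51 (FDR 0.00026) and 1.69 ± 0.20 (FDR 0.000214), and they stayed called without passage 6 (FDRs 0.00305, 0.0032 and 0.00469).

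GCLM, the modifier subunit of the enzyme that starts glutathione synthesis, and TXNRD1, thioredoxin reductase 1, showed smaller gaps. GCLM was at 39.0, 49.7 and 46.1 CPM with RSL3 and at 48.1, 60.9 and 65.7 CPM with Fer-1 (log2 fold change 0.37 ± 0.10, FDR 0.161). TXNRD1 was at 283, 424 and 462 CPM with RSL3 and at 407, 505 and 526 CPM with Fer-1 (0.32 ± 0.08, FDR 0.156). In every passage each was higher with Fer-1 than with RSL3, and untreated levels were 20.7 to 22.8 CPM and 211 to 264 CPM. TKT, a pentose phosphate enzyme and the third NRF2 target by its p, had the opposite sign, at 436, 494 and 586 CPM with RSL3 and 373, 434 and 498 CPM with Fer-1 (-0.22 ± 0.09, FDR 0.308). The small heat shock protein gene HSPB1 was at 128, 78.9 and 278 CPM with RSL3 and at 78.5, 137 and 79.1 CPM with Fer-1, with overlapping groups (-0.64 ± 0.65, FDR 0.681). The ferritin genes did not pass the test either, with log2 fold changes of -0.37 ± 0.32 for the light chain FTL (FDR 0.623) and -0.21 ± 0.20 for the heavy chain FTH1 (FDR 0.655).

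**Figure D4:**
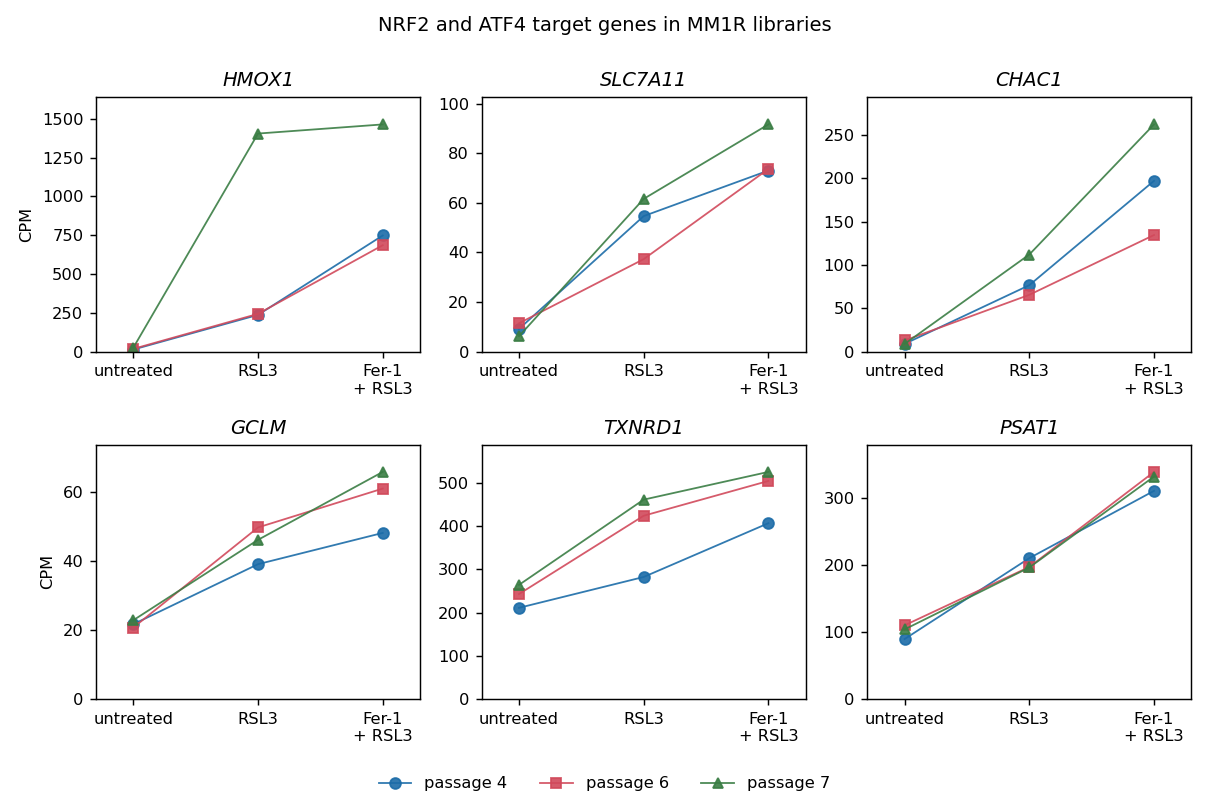
Levels in CPM of the NRF2 and ATF4 target genes HMOX1, SLC7A11, CHAC1, GCLM, TXNRD1 and PSAT1 in the 9 MM1R libraries, with a line for each passage and axes from 0. Within each passage the library with Fer-1 and RSL3 lies at or above the RSL3 library, and both lie above the untreated one.

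TFRC, the transferrin receptor that brings iron into the cell, was at 156, 189 and 296 CPM with RSL3, at 46.2, 167 and 72.7 CPM with Fer-1 and at 389, 431 and 403 CPM in untreated cells. It was lower with Fer-1 in each passage, but the passage 6 library overlapped the RSL3 group (log2 fold change -1.28 ± 0.42, FDR 0.244; -1.90 ± 0.45, FDR 0.323 without passage 6). Against untreated cells, Fer-1 and RSL3 gave -2.24 ± 0.42 (FDR 0.00286; -2.79 ± 0.46, FDR 0.00597 without passage 6) and RSL3 alone -0.96 ± 0.40 (FDR 0.131).

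The immediate early genes shared the direction of the metallothioneins but varied widely among RSL3 libraries. NR4A1, an orphan nuclear receptor, was at 316, 32.1 and 1391 CPM with RSL3 and at 27.4, 10.3 and 4.26 CPM with Fer-1 (log2 fold change -4.74 ± 1.57, FDR 0.25). NR4A3 of the same family was at 30.2, 1.57 and 157 CPM with RSL3 and at 1.77, 0.468 and 0.273 CPM with Fer-1 (-5.63 ± 1.54, FDR 0.165), and NR4A2 was at 18.9, 2.60 and 114 CPM with RSL3 and at 3.79, 1.14 and 1.42 CPM with Fer-1 (-3.66 ± 1.32, FDR 0.265). For all 3, the highest RSL3 library was passage 7 and the lowest passage 6, and for NR4A2 and NR4A3 the passage 6 RSL3 library overlapped the Fer-1 group. JUNB, a subunit of AP-1, was at 60.1, 41.1 and 115 CPM with RSL3 and at 24.6, 25.7 and 14.9 CPM with Fer-1 (-1.66 ± 0.44, FDR 0.154).

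Several named genes of the kinase feedback and cell death lists, whose members were split or close to 0 at the median, had negative fold changes that did not pass the test. DUSP5, a phosphatase that inactivates ERK, was at 1593, 1140 and 2339 CPM with RSL3 and at 592, 421 and 334 CPM with Fer-1, against 474 to 574 CPM without treatment (log2 fold change -1.91 ± 0.41, FDR 0.103). DUSP4 was at 559, 443 and 1101 CPM with RSL3 and at 226, 165 and 152 CPM with Fer-1 (-1.89 ± 0.42, FDR 0.103). BCL2L11, which encodes the death protein BIM, was at 777, 277 and 782 CPM with RSL3, at 219, 196 and 160 CPM with Fer-1 and at 142 to 228 CPM without treatment (-1.60 ± 0.38, FDR 0.122). Groups did not overlap for any of the 3, as for 6.44% of all tested genes in this direction. SPRED1, an inhibitor of RAS signalling from the same list as the phosphatases, had a positive value, at 28.1, 29.1 and 20.2 CPM with RSL3 and 36.4, 40 and 30.6 CPM with Fer-1 (0.48 ± 0.20, FDR 0.323). FOXA1, a forkhead factor, was at 38.2, 18.4 and 40.8 CPM with RSL3 and at 16, 13.7 and 10.3 CPM with Fer-1 (-1.26 ± 0.40, FDR 0.232), and the histone demethylase gene KDM6B was at 29.0, 12.9 and 24.7 CPM with RSL3 and at 15.8, 11.7 and 8.41 CPM with Fer-1 (-0.88 ± 0.41, FDR 0.368). TNFAIP3, a feedback inhibitor of NF-κB, had a positive fold change that did not pass the test, at 147, 171 and 113 CPM with RSL3 and 214, 242 and 181 CPM with Fer-1 (0.57 ± 0.13, FDR 0.103). The RSL3 library of passage 6 was the lowest of the 3 for DUSP5, DUSP4, BCL2L11, FOXA1 and KDM6B, as it was for the metallothioneins.

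Gene lists put these profiles against the rest of the table, in which the median log2 fold change was 0.01, 48.3% of genes had a negative and 51.7% a positive value, and 6.38% of genes were lower and 7.18% higher at an unadjusted p under 0.05. Of 22 immediate early genes tested, 21 had negative values, 9 at an unadjusted p under 0.05, and BTG2 alone passed the FDR threshold. FOSL1 and EGR3 of this list, like SQSTM1 of the NRF2 list and HSPB8 of the heat shock list, passed the low count filter only through RSL3 libraries, so these counts are a description. The median of the immediate early genes was -1.13, and -1.66 without passage 6. Of 23 apoptosis and p53 target genes, 17 had negative values, 6 at that p, and BMF alone passed, with a median of -0.18. Among 17 genes of cholesterol synthesis and SREBP2 control, 15 had negative values and 5 were at that p (1 without passage 6), with a median of -0.18. The 12 kinase feedback genes were split, with 4 lower and 2 higher at that p and a median of -0.25. Of 6 tested genes among 18 cytokines and NF-κB feedback genes, 3 were lower and 1 higher at that p, and CXCL10 alone was called.

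Of 26 cell cycle genes, 23 had positive values, 10 at an unadjusted p under 0.05 (9 without passage 6), and the median was 0.28, with none past the FDR threshold. TTK, a spindle checkpoint kinase, was at 35.8, 65.8 and 55.6 CPM with RSL3 and at 56.0, 77.9 and 93.1 CPM with Fer-1 (log2 fold change 0.54 ± 0.15, FDR 0.179). Of 16 ATF4 targets, 13 had positive values and 5 were at that p (median 0.24), and of 22 NRF2 targets 12 were positive, with 2 in each direction at that p (median 0.09). The 21 heat shock and chaperone genes had a median of 0.26 that changed sign to -0.07 without passage 6, where 0 of the members were at that p. The 21 genes of ferroptosis and iron handling (median -0.03, 1 lower and 2 higher) and the 16 JmjC histone demethylases (median 0.08, 2 lower and 4 higher) were near the values of the whole table or split. None of the genes in the lists of this paragraph passed the FDR threshold.

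**Figure D5:**
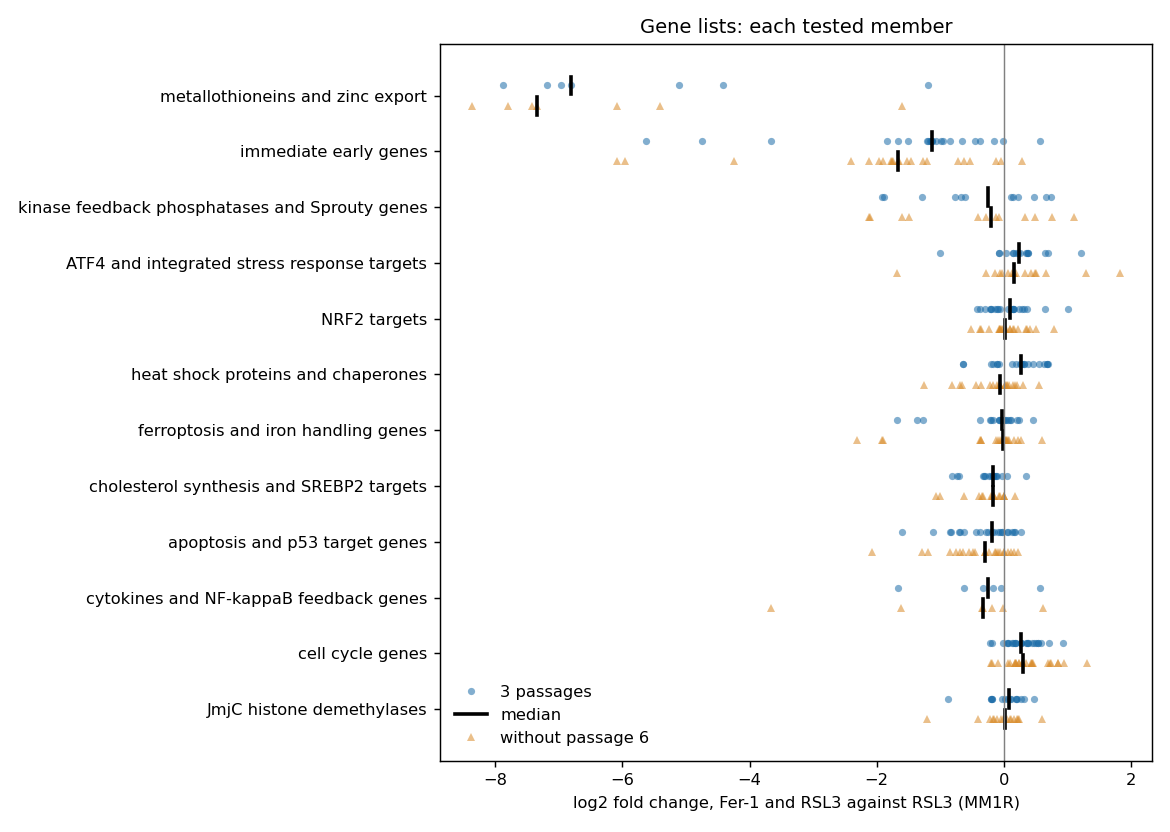
Log2 fold changes of Fer-1 and RSL3 against RSL3 in MM1R cells for each tested member of 12 gene lists, with circles for the fit with 3 passages, triangles for the fit without passage 6 and black bars for list medians. All tested members of the metallothionein list, and all tested immediate early genes except EGR1, lie to the left of 0 in both fits. The heat shock median moves from 0.26 to -0.07 when passage 6 is left out.

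MM1S cells received the same treatments at passages 16, 22 and 23. There, 5 genes were DEGs, all lower with Fer-1 (0.0350% of those tested, beside 6.11% lower and 5.33% higher at an unadjusted p under 0.05), namely MT1E, MT1F, MT1G, MT1H and CXCL10, each of which was also a DEG in MM1R cells. Of these, MT1E, MT1F and MT1H were tested only because RSL3 libraries carried them past the low count filter. MT1G had 8170, 386 and 179 reads in the MM1S RSL3 libraries and 9, 17 and 2 with Fer-1, so that the RSL3 library of passage 16 was far above the other 2. CXCL10 had a log2 fold change of -1.85 ± 0.29 in MM1S cells (FDR 0.0364), against -1.66 in MM1R cells. TMEM79 was higher by 0.75 ± 0.12 (FDR 0.0364). BCL3, HES1, SPSB1 and THEMIS2 had log2 fold changes of -0.75, -0.87, -0.44 and -0.73 in MM1S cells and were not called there (FDRs 0.365 to 0.529).

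Of the 25 genes at an FDR under 0.05 in MM1R cells, 24 had the same sign in MM1S cells (96%), MGST1 being the exception, whereas over all tested genes the share was 69.2%. The passage 6 library with Fer-1 carries MM1S signal into the MM1R values. With passage 6 left out, 14275 of the tested genes were also tested in the fit of all libraries. Of the 1105 of them at an unadjusted p under 0.05, 1036 had the same sign in both lines (93.8%), against 72.7% of the 14275. The direct test of a difference between the lines called 0 genes with edgeR (355 at an unadjusted p under 0.05, 0.959% lower and 1.53% higher in MM1R relative to MM1S, smallest FDR 0.128) and 1 gene, SPIN3, with DESeq2 and the block. The counts were 2 without the passage 4 library with RSL3, without that with Fer-1, or without the passage 16 RSL3 library of MM1S.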

How the data were processed

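RNA sequencing was analysed for 18 libraries of MM1R and MM1S cells. The authors extracted RNA with RNeasy kits, sequenced it in read pairs (BGISEQ-500), assessed read quality by FastQC 0.11.5, aligned the reads to hg19 with STAR 2.7.3a (versions as in the submitters' processing notes) and deposited raw read counts on 43735 genes. The counting tool, annotation and use of strand are not given in the sources used here. A second deposited table of normalized values was not used.

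Genes were kept by filterByExpr with a minimum count of 10 (14281 of 43735), scaled by TMM (factors 0.864 to 1.06) and tested with edgeR 4.0.16 in R 4.3.3, in 1 quasi-likelihood fit of all 18 libraries with 6 groups and the passage as a block (8 residual degrees of freedom), with Benjamini-Hochberg adjustment (FDR). CPM use TMM-scaled library sizes. SE are of the log2 fold change and come from the fit of all libraries, so they are not the spread of the MM1R pairs alone. Genes past an FDR of 0.05 whose log2 fold change exceeded 1 in either direction were counted as DEGs. Positions came from an hg19 annotation joined by gene symbol. Simulated counts were used to test only the edgeR fit of Fer-1 and RSL3 against RSL3 in MM1R cells, with and without passage 6.

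The labels give each library's passage, and the replicates were described as independent. Deviations of same-passage libraries from their group means correlated with a median of 0.250 in MM1R cells (0.0338 to 0.516, 9 pairs), against -0.102 between passages.

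Genes were named if they were DEGs, had the 10 smallest p in either direction (5 without passage 6), were among the 3 members with the smallest p of 12 gene lists, had the 3 smallest p for the difference between the lines, or were named by the study. Of these, 1 gene is not reported here. The members and lists were chosen with earlier results of these data known. Alternatives were DESeq2 1.42.0, RLE and upper-quartile scaling, no filter or a stricter one, fewer libraries in the fit, no block, other thresholds and leaving out each library.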

Additional observations from a re-analysis of the deposited data

How the results depend on the processing

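The number of DEGs with 3 passages (12) was the same with RLE and upper-quartile scaling, 10 with a stricter low count filter and 17 with DESeq2 without the passage block. It was 0 with no replicate block, 33 with DESeq2 and the block, 115 with no low count filter, 19 with only MM1R libraries in the fit, 7 with only the groups compared, 25 with an FDR under 0.05 and no fold criterion, and 308 with an FDR under 0.5, and 4 to 91 with 1 library left out. Without passage 6 (4 DEGs), it was again 4 with both scalings and 3 with the stricter filter, but 0 with no replicate block (433 genes at an unadjusted p under 0.05), 17 with DESeq2 and the block, 10 with DESeq2 without it, 114 with no low count filter, 99 with only MM1R libraries, 156 with only the groups compared, 121 with an FDR under 0.5, and 0 to 144 with 1 library left out (0 without the passage 4 library of MM1R with Fer-1 and RSL3, 144 without the passage 16 RSL3 library of MM1S). The count for the difference between the lines (0) was 1 with DESeq2 and the block, 5 with no low count filter, 3 with an FDR under 0.5 and 0 to 2 with 1 library left out. The cause of these shifts was not tested, beyond the fewer libraries or genes that some settings hold by construction.

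Of single genes, MGST1 reversed to a log2 fold change of -2.3578 without passage 6 and ranged from -2.3548 (without the passage 6 library with Fer-1) to 9.6259 with 1 library left out, and ZNF175 went to 0 without passage 6, where it has no reads. MBP (-0.76) and NR3C1 (0.37, and -0.37 without passage 6), neither of them called, changed sign as well. The share of MM1S signal in that library was 46.6% with 17 genes at least 4 times apart between the lines. Median log2 fold changes of all tested genes moved by less than 0.02 between scalings. Genes near the floor of 3 counts, such as MT1E, are limited by depth. With 3 passages per group, the p-values rest on a spread pooled over all libraries in the fit, including those of MM1S cells.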

Other observations

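Genes whose symbols begin with ZNF, most of which encode zinc finger proteins, had mostly positive fold changes with Fer-1. This group was chosen after its values were seen and has no test. Of 468 such genes tested in MM1R cells, 374 (79.9%) had a positive log2 fold change of Fer-1 and RSL3 against RSL3, with a median of 0.22, and 133 (28.4%) were higher at an unadjusted p under 0.05, against 7.18% of all tested genes. Without passage 6, 81 of 474 (17.1%) were higher at that p, against 3.87% of all tested genes, and in MM1S cells 96 of 468 (20.5%) were, against 5.33%. Against untreated MM1R cells, 57.7% of the 468 genes had a positive log2 fold change with RSL3 alone (median 0.06). With Fer-1 and RSL3, 77.6% did (median 0.31), so most stood above untreated levels rather than returning to them. Examples were ZNF230, at 2.20, 2.71 and 1.65 CPM with RSL3 and 4.20, 3.95 and 3.77 CPM with Fer-1 (log2 fold change 0.86 ± 0.20, FDR 0.109), and ZNF473 (0.58 ± 0.10, FDR 0.0466). Not every member shared this direction, as ZNF710 fell by 0.81 (FDR 0.0102).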
